A study of Mus musculus with 8 samples.

Results

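The Fc gamma receptor genes are the subject here. They comprise the activating receptor genes Fcgr1, Fcgr3 and Fcgr4, the inhibitory receptor gene Fcgr2b, the shared signalling chain gene Fcer1g and the neonatal Fc receptor gene Fcgrt. They were chosen by symbol, and all 6 were found among the 16486 genes of the deposited expression table. Bulk RNA-Seq had been run on Ly6C-high and Ly6C-low blood monocytes (MCs) of control (CT), type 1 diabetic (T1DM) and type 2 diabetic (T2DM) mice, and 8 libraries were analysed. CT MCs gave 2 libraries of each subset, while T1DM and T2DM MCs gave 1 library of each subset.

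CT mice were wild type C57/BL6 animals on chow. T1DM mice were C57/BL6 animals given streptozotocin (STZ), a toxin of insulin-producing cells, intraperitoneally at 50 mg/kg per day on 5 successive days from 8 weeks of age. The T2DM animals, db/db mice, are homozygous for a mutation of the leptin receptor and also lack leptin signalling in every other cell. All groups ate chow, and blood was taken at 20 to 22 weeks of age. The sort took cells that were CD11b+ and Ly6G- and split them by Ly6C, with material of 5 mice pooled per group. A pair of CT libraries is therefore not a pair of animals. Within CT, the p-values below measure the spread between libraries, which may be technical. In tests that use the diabetic libraries, that spread also holds differences between the diabetic models or between their subset differences. CT libraries were read on a NextSeq 500 and the diabetic libraries on a HiSeq 4000, so any comparison with CT cannot be told apart from a comparison of sequencers.

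Fc gamma receptors bind the constant part of IgG and let a phagocyte respond to immune complexes and antibody-coated particles. The activating receptors signal through the gamma chain encoded by Fcer1g, whose activation motif recruits the kinase Syk, and Fcgr2b carries an inhibitory motif that recruits the phosphatase encoded by Inpp5d. Fcgrt differs in role from the others, since it binds IgG and albumin inside the cell, with beta-2 microglobulin as its partner, and returns them to the blood.

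In the GENCODE annotation of GRCm38 (mm10), 4 of the 6 genes lie close together on chromosome 1. Fcgr2b (chr1:170958617-170976547, minus strand), Fcgr4 (chr1:171018920-171029761, plus strand), Fcgr3 (chr1:171051174-171064935, minus strand) and Fcer1g (chr1:171229572-171234365, minus strand) follow each other in that order. Fcgr1 stands apart at chr3:96282909-96293969 and Fcgrt at chr7:45092990-45103851, both on the minus strand. Because reads were assigned by short matches to transcripts, shared sequence matters: 13.4% of the 31-base words of Fcgr3 transcripts also occur in Fcgr2b transcripts, against 0% for Fcgr1 and Fcer1g, 1.31% for Fcgr4 and 1.6% for Fcgrt. For Fcgr2b 5.78% of such words are shared, 4.15% with Fcgr3. The authors' counting could split reads between Fcgr3 and Fcgr2b, so their values are uncertain by an amount that was not measured.

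The upstream sequences of the 3 activating receptors are shown because these are the genes whose levels differed most between the subsets. Each is the 250 bases before the RefSeq start in GRCm38.p6, read along the gene's own strand (Fcgr1 chr3:96293970-96294219, minus; Fcgr3 chr1:171059404-171059653, minus, the more upstream of 2 listed starts; Fcgr4 chr1:171018676-171018925, plus). Capitals mark matches, on either strand, to the core GAGGAA bound by the myeloid factor PU.1 (here always as its complement TTCCTC), to the interferon gamma element TTCNNNGAA or to an interferon-stimulated type, GAAA repeated after any 2 bases, and no matches overlap.
Fcgr1: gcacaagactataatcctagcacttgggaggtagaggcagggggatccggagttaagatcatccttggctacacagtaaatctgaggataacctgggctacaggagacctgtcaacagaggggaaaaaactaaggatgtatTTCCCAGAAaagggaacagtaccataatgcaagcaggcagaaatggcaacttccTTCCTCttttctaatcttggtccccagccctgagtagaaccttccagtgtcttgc
Fcgr3: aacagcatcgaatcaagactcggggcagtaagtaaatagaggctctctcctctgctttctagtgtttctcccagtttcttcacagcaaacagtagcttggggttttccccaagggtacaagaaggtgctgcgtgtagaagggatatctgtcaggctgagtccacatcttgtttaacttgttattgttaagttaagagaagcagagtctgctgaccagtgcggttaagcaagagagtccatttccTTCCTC
Fcgr4: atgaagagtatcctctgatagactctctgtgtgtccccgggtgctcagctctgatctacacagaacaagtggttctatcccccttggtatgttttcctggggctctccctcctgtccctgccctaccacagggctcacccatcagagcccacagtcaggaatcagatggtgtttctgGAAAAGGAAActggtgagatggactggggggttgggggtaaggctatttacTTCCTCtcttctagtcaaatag
The PU.1 core was present in these 3 and not in the same window of Fcgr2b, Fcer1g or Fcgrt. Its first base lay 55 bases before the start in Fcgr1, 6 in Fcgr3 and 22 in Fcgr4. Except for Fcgr1, the RefSeq starts used lie inside the GENCODE spans of the genes, farthest for Fcgr3 and Fcgr2b. The windows of these other genes are therefore not upstream of the whole gene. Among 32851 RefSeq promoter windows of the same length, 23.3% held this core. The interferon gamma element was found in Fcgr1 alone of the 6, 109 bases before its start, and is present in 7.02% of windows; the interferon-stimulated type was found in Fcgr4 alone, 73 bases before its start, and is present in 2.98% of windows. These are letter matches only and no binding was measured.

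The deposited values are on a log2 scale after normalization by the authors. They were taken as not divided by transcript length, although the paper obtained both gene counts and length-scaled values. Each gene was therefore compared between libraries and not with another gene. Without counts in the files, depth is unknown. Ly6c2, which encodes the sorted surface protein, lay between 8.56 and 8.72 in Ly6C-high and between 2.69 and 4.07 in Ly6C-low libraries, and 7 of 9 classical MC markers were called higher in CT Ly6C-high MCs and none lower. The nonclassical list followed the labels in part, with 1 of 11 markers called lower in CT Ly6C-high MCs and 5 over the 8 libraries (medians -0.43 and -1.18), and Cx3cr1 stood at 0.83 in CT (limma adjusted p = 0.00541), on the side of the Ly6C-high MCs. A list of 15 B cell markers, however, summed (2 raised to each log2 value, added up) to between 385 and 782 in the 4 Ly6C-high libraries and between 6697 and 8245 in the 4 Ly6C-low libraries, with no marker below 0 on the log2 scale in every library. For 10 NK cell markers these sums were 27.8 to 124 and 165 to 943, the T2DM Ly6C-low library being the lowest of its subset. For 6 genes common to MCs the sums ran the other way, at 36499 to 54763 and 7909 to 9257. Lyz2 was the highest of the 6 in every library, so these sums mostly follow Lyz2, whose log2 difference was 2.48 in CT. The median log2 difference of the 6 was 1.02 in CT and 0.95 over the 8 libraries. For 7 of 10 neutrophil markers found the sums were 447 to 699 and 139 to 271, with Csf3r, which MCs also express, the highest in every library. For 6 of 8 eosinophil and basophil markers found, the median log2 difference of diabetic minus CT was 2.07 in Ly6C-low MCs. It was -1.05 in Ly6C-high MCs, and none of the 6 was called in either. B cells express Fcgr2b, NK cells Fcgr3 and Fcer1g, and neutrophils Fcgr3, Fcgr4 and Fcer1g. The part of these cells in the values below was not tested, and in bulk RNA fewer cells of a type cannot be told apart from less RNA per cell.

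On the deposited scale, Fcgr1, Fcgr3, Fcgr2b and Fcer1g stood higher and Fcgr4 lower in Ly6C-high than in Ly6C-low MCs of every mouse group. Fcgrt overlapped between the subsets. Fcgr2b and Fcer1g changed sign when libraries were centred on MC genes. Between CT libraries (limma, adjusted p under 0.01 and an absolute log2 difference above 1), 2 of the 6 genes rose, 1 fell and 3 were not called. The same rule called 3.52% of all 16486 genes, 2.1% higher and 1.43% lower. The median log2 difference was 0.78 over the 6 genes and -0.09 over all genes. With subset tested over the 8 libraries and mouse group as covariate, the same 3 genes were called, against 12.1% of all genes (5.37% higher and 6.76% lower). In 5 of the 6 genes the 4 Ly6C-high libraries did not overlap the 4 Ly6C-low libraries, which held for 32.8% of all genes. The CT calls rest on few libraries: with any 1 CT library left out limma called 0 of the 6 (adjusted p 0.0633 to 0.0868 for the 3 genes) and 0 of all 16486 genes, although 5 of the 6 had an unadjusted p under 0.05 each time. The differences themselves then ranged from 2.99 to 3.43 for Fcgr1, from 2.08 to 2.13 for Fcgr3 and from -1.87 to -1.71 for Fcgr4.

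**Figure D1:**
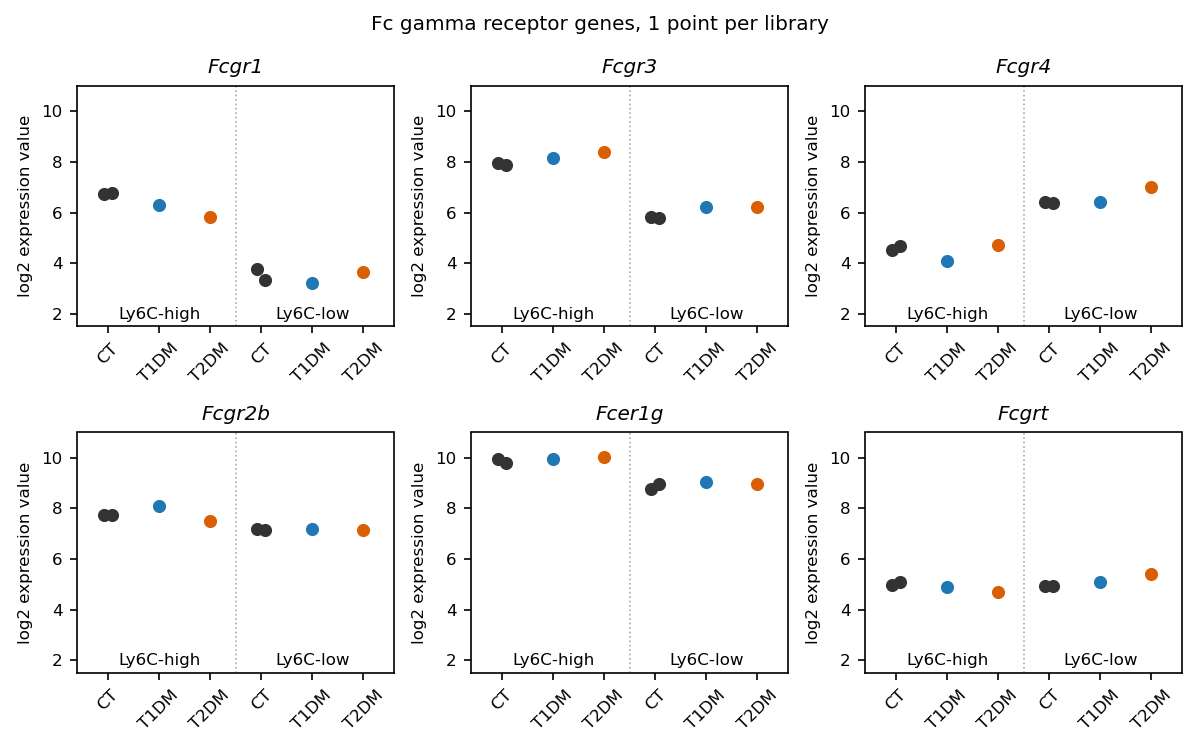
Log2 expression value (y axis) of each of the 6 genes in each of the 8 libraries, 1 point per library, by subset and mouse group (x axis). Fcgr1 and Fcgr3 lie higher on the Ly6C-high side and Fcgr4 on the Ly6C-low side in every mouse group, and Fcgrt spans 4.70 to 5.10 and 4.94 to 5.39 on the respective sides. Heights were not compared between panels because the values were taken as not scaled by transcript length.

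Fcgr1 encodes the high-affinity IgG receptor. Its log2 value was 6.74 and 6.76 in the CT, 6.30 in the T1DM and 5.82 in the T2DM Ly6C-high libraries. In Ly6C-low MCs it was 3.76 and 3.32 for CT, 3.20 for T1DM and 3.65 for T2DM. The subsets were separated by a gap of 2.07, wider than the whole range within either. Fcgr1 rose in Ly6C-high MCs by 3.21 on the log2 scale in CT (SE 0.19, n = 2 and 2 libraries, limma adjusted p = 0.00637), a 9.26-fold difference with a 95% interval of 6.34 to 13.5. Over the 8 libraries the difference was 2.93 (SE 0.20, limma adjusted p = 1.56e-05). The single-library difference was 3.11 in T1DM and 2.17 in T2DM.

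Fcgr3 encodes a low-affinity activating receptor. Ly6C-high MCs held 7.94 and 7.89 for CT, 8.15 for T1DM and 8.38 for T2DM. The Ly6C-low values were 5.81 and 5.80 for CT, 6.21 for T1DM and 6.22 for T2DM. Every Ly6C-high value exceeded every Ly6C-low value, and within each subset both diabetic libraries exceeded both CT libraries. The share of all genes with the latter pattern was not computed, and it cannot be told apart from the change of sequencer. The CT difference was 2.11 (SE 0.06, limma adjusted p = 0.00323), or 4.31-fold with a 95% interval of 3.81 to 4.87. Over the 8 libraries it was 2.08 (SE 0.09, limma adjusted p = 1.22e-06). T1DM and T2DM gave 1.94 and 2.16, so among the 3 called genes this difference varied least between mouse groups.

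Fcgr4 encodes an activating receptor of intermediate affinity and is the member that fell in Ly6C-high MCs. Ly6C-high libraries held 4.53 and 4.68 for CT, 4.07 for T1DM and 4.70 for T2DM. The Ly6C-low libraries held 6.40 and 6.38 for CT, 6.43 for T1DM and 7.00 for T2DM. No Ly6C-low library came within 1.69 log2 units of a Ly6C-high one. The difference was -1.79 in CT (SE 0.10, limma adjusted p = 0.00637), a 3.46-fold lower level with a 95% interval of 2.81 to 4.26, and -2.06 over the 8 libraries (SE 0.14, limma adjusted p = 1.42e-05). In T1DM it was -2.36 and in T2DM -2.30.

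Fcgr2b encodes the inhibitory receptor. The Ly6C-high values were 7.73 and 7.74 for CT, 8.10 for T1DM and 7.50 for T2DM. The Ly6C-low values were 7.19 and 7.14 for CT, 7.20 for T1DM and 7.14 for T2DM. The subsets did not overlap but lay only 0.31 apart, and the Ly6C-low libraries spanned only 0.06. In CT the difference was 0.57 (SE 0.05, limma adjusted p = 0.0121) and over the 8 libraries 0.60 (SE 0.10, limma adjusted p = 0.00196), in both cases under the size limit, and it turned negative when libraries were centred on MC genes. With quantile normalization it was 0.30 (limma adjusted p = 0.0462) and 0.35 (limma adjusted p = 0.0295), so the second no longer passed 0.01. Beside it, the B cell marker list had a median subset difference of -4.06 in CT, with 13 of 15 genes called lower in Ly6C-high MCs.

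Fcer1g encodes the gamma chain. Its Ly6C-high values were 9.94 and 9.78 for CT, 9.95 for T1DM and 10.05 for T2DM. Its Ly6C-low values were 8.77 and 8.98 for CT, 9.04 for T1DM and 8.96 for T2DM. The subsets were separated by 0.75. The difference stood at the edge of the size limit, at 0.98 in CT (SE 0.10, limma adjusted p = 0.0147) and 0.99 over the 8 libraries (SE 0.08, limma adjusted p = 3.58e-05), and turned negative under the same centring. Quantile normalization lowered it to 0.62 in CT (limma adjusted p = 0.0219) and 0.60 over the 8 libraries (limma adjusted p = 0.000455). It was 0.91 in T1DM and 1.09 in T2DM.

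Fcgrt encodes the neonatal Fc receptor. Ly6C-high MCs measured 4.97 and 5.10 for CT, 4.90 for T1DM and 4.70 for T2DM. Ly6C-low MCs measured 4.94 and 4.94, 5.10 and 5.39 in the same order. The subsets overlapped. The CT difference was 0.09 (95% interval -0.23 to 0.42, limma adjusted p = 0.586), and over the 8 libraries it was -0.18 (95% interval -0.55 to 0.19, limma adjusted p = 0.435). B2m, its partner, differed by 0.33 in CT (limma adjusted p = 0.0132) and by 0.10 over the 8 libraries (limma adjusted p = 0.467).

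**Figure D2:**
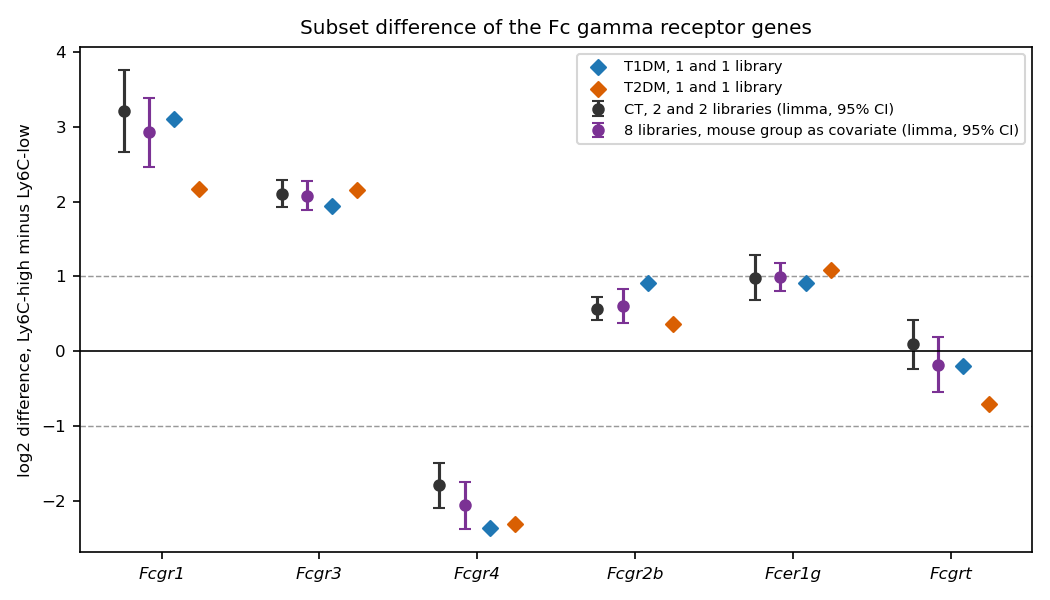
Log2 difference of Ly6C-high minus Ly6C-low MCs (y axis) for each gene (x axis): circles with bars are limma estimates with 95% confidence intervals in CT and over 8 libraries, diamonds are T1DM and T2DM with 1 library on each side and no error, and dashed lines mark the size limit of 1. Fcgr1 and Fcgr3 lie above 1 and Fcgr4 below -1 in every group, and Fcgrt crosses 0; centring on MC genes moves Fcgr2b and Fcer1g below 0 and Fcgr3 under 1.

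These differences depend on what is held constant between the subsets. When each library was instead centred on the mean of the 6 genes common to MCs, a setting added after the data were seen, the median of all genes moved from -0.09 to -1.39 in CT, and 93 genes were called higher and 7873 lower in place of 346 and 235. Under that scaling Fcgr1 stayed called at 1.91 and Fcgr4 at -3.10, Fcgr3 was 0.80 and under the size limit, Fcgr2b (-0.74), Fcer1g (-0.32) and Fcgrt (-1.21) changed sign, and Fcgrt was called. In the test over the 8 libraries Fcgr3 was likewise 0.81 and not called, and Fcgrt was called at -1.44. Centring lowers every difference by 1.31 in CT and by 1.26 over the 8 libraries, so any positive difference below that changes sign. The difference of a pair of genes within a library is not touched by any such shift.

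Within a library, Fcgr4 moved against Fcgr3 and Fcgr2b, and Fcgr1 and Fcgr3 moved in the other direction against Fcgr2b, irrespective of scaling by a constant. Fcgr3 minus Fcgr4 lay between 3.21 and 4.08 in the Ly6C-high libraries and between -0.78 and -0.22 in the Ly6C-low libraries, a mean shift of 4.22 log2 units. Fcgr4 minus Fcgr2b lay between -4.03 and -2.81 against -0.79 and -0.14, a shift of -2.76. For Fcgr1 minus Fcgr2b the ranges were -1.80 to -0.98 and -4.00 to -3.44, a shift of 2.22. Fcgr3 minus Fcgr2b, the pair that shares sequence, ranged from 0.04 to 0.87 and from -1.38 to -0.92, a shift of 1.45. None of the 4 pairs overlapped between the subsets. For Fcgr3 minus Fcgr4 and Fcgr4 minus Fcgr2b this separation, and with it the permutation result, follows from the separation of the single genes. The share of separate pairs among all genes was not computed. An exact two-sided permutation test of subset within mouse group gave p = 0.0833 for each pair (adjusted p = 0.0833), the smallest that its 24 labelings can give, so this design could not reach 0.05.

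**Figure D3:**
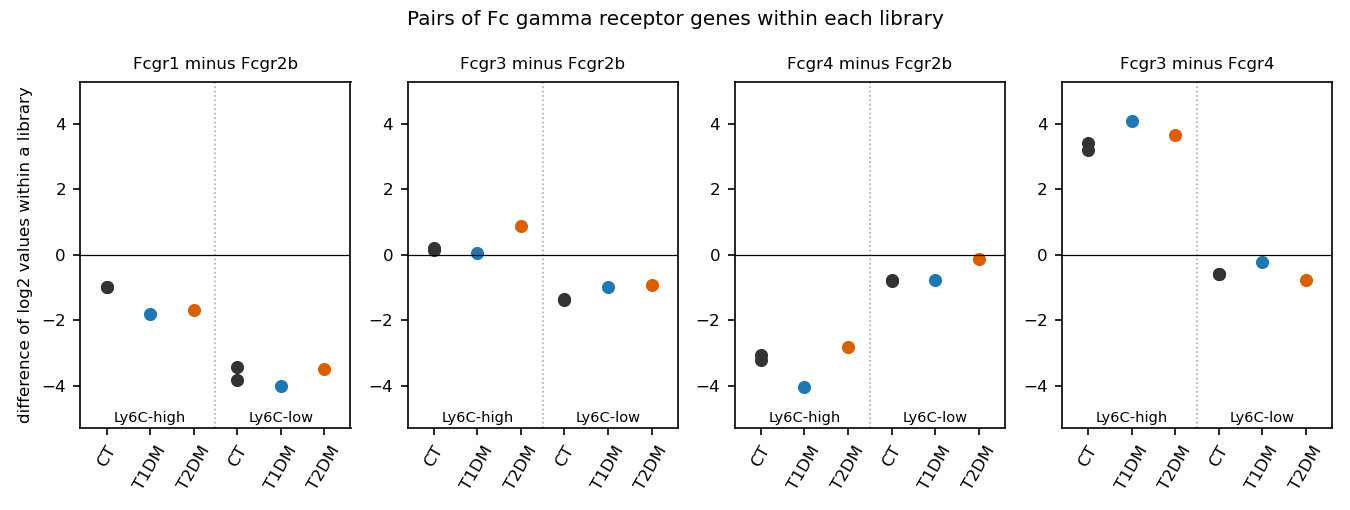
Difference of the log2 values of 2 Fc gamma receptor genes within a library (y axis), 1 point per library, by subset and mouse group (x axis). Fcgr3 minus Fcgr4 sits between 3.21 and 4.08 in Ly6C-high and between -0.78 and -0.22 in Ly6C-low libraries. The subsets are separate in all 4 pairs, which for the pairs with Fcgr4 follows from the separation of the single genes.

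No member was called between mouse groups. In T1DM minus CT over both subsets, 0 of the 6 passed the limma rule (0.0% of all genes did) and 1 had an unadjusted p under 0.05 (3.34% of all genes). That gene was Fcgr3, at 0.32 (SE 0.10, limma adjusted p = 1.00). In T2DM minus CT, 0 of 6 passed (0.297% of all genes), again with 1 at an unadjusted p under 0.05 (8.94%). It was Fcgr3 once more, at 0.44 (95% interval 0.20 to 0.68, limma adjusted p = 0.133); both comparisons use the same CT libraries. For Fcgr4 the T2DM value was 0.35 (SE 0.17, limma adjusted p = 0.644) and the T1DM value -0.25 (SE 0.17, limma adjusted p = 1.00).

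T2DM minus T1DM compares libraries from the same sequencer. Here too 0 of 6 passed (0.588% of all genes), with 2 at an unadjusted p under 0.05 (14.3%). Fcgr4 stood at 0.60 (95% interval 0.15 to 1.05, limma adjusted p = 0.212) and was higher in T2DM in both subsets, by 0.63 among Ly6C-high and 0.57 among Ly6C-low libraries. Fcgr2b stood at -0.33 (95% interval -0.65 to -0.01, limma adjusted p = 0.339), with -0.60 among Ly6C-high and -0.059 among Ly6C-low libraries. The remaining 4 genes lay between -0.01 and 0.12. For Fcgr1 this averaged -0.48 among Ly6C-high and 0.45 among Ly6C-low libraries, and for Fcgrt -0.20 and 0.29, each from single libraries and not tested. In the same contrast B2m was lower by -0.71 (SE 0.14, limma adjusted p = 0.0414), which is past 0.05 but not past the limit used here, and 6 of the 10 NK cell markers were called lower.

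Both diabetic models were then set together against CT. The T1DM and T2DM libraries of a subset served as replicates, so their spread includes the difference between the models. By limma, 0 of 6 passed in Ly6C-high (0.0% of all genes) and 0 of 6 in Ly6C-low MCs (0.0%). An unadjusted p under 0.05 was reached by 2 and 1 (4.48% and 2.97% of all genes). In Ly6C-high MCs these were Fcgr1, at -0.69 (95% interval -1.29 to -0.08), and Fcgr3, at 0.35 (0.05 to 0.65), each with a limma adjusted p of 1.00. In Ly6C-low MCs it was Fcgr3, at 0.41 (0.11 to 0.71, limma adjusted p = 1.00). The interaction of subset and diabetes called 0 of 6 (0.0% of all genes), and none had an unadjusted p under 0.05 (6.58%). Its widest estimate was that of Fcgr1, at -0.57 (95% interval -1.43 to 0.29, limma adjusted p = 0.856), a difference not detectable for this gene with these libraries. The intervals were narrowest for Fcer1g (-0.38 to 0.41) and Fcgr3 (-0.48 to 0.36).

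Taken library by library, no diabetic value was more than 1 log2 unit from the CT mean of its subset. Among all genes, the share past that limit in Ly6C-high MCs was 10.1% for T1DM and 13.8% for T2DM, and in Ly6C-low MCs 8.81% and 10.8%. The widest was Fcgr1 in T2DM Ly6C-high MCs, at -0.93, followed by Fcgr4 in T2DM Ly6C-low MCs, at 0.61, and Fcgr4 in T1DM Ly6C-high MCs, at -0.53. The T2DM Ly6C-high library stood apart in MC markers: its 9 classical markers summed to 28772 against 11608 to 13924 in the other Ly6C-high libraries, and its 11 nonclassical markers to 1661 against 2593 to 3383. Their part in its values was not tested. All 6 genes lay outside both CT values in the T1DM Ly6C-high, T1DM Ly6C-low and T2DM Ly6C-high libraries, and 4 of 6 did in the T2DM Ly6C-low library. That held for 69.8%, 70.1%, 73.9% and 71.5% of all genes, so lying outside the pair of CT values is common here. The CT pairs were close: their gap was 0.017 for Fcgr1 and 0.0045 for Fcgr2b in Ly6C-high MCs, and at most 0.44, for Fcgr1 in Ly6C-low MCs.

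**Figure D4:**
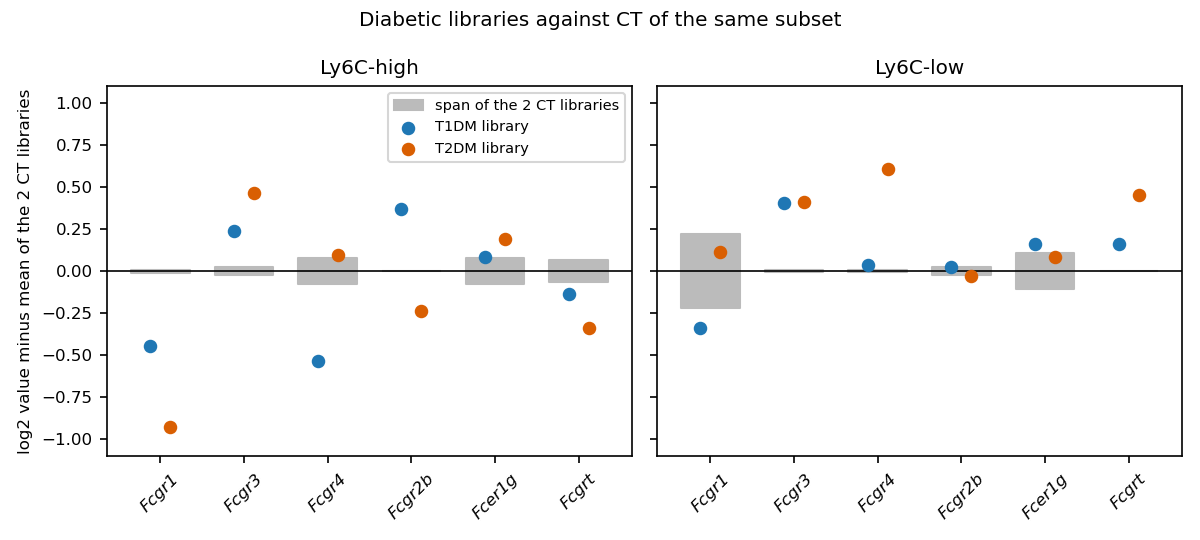
Log2 distance of each T1DM and T2DM library from the CT mean of its subset (y axis) for the 6 genes (x axis), with the span of the CT libraries in grey and no error on the single diabetic libraries. All points lie within 1 log2 unit, the widest being Fcgr1 in T2DM Ly6C-high MCs at -0.93. Fcgr3 is above CT in each of the 4 diabetic libraries, a pattern whose share among all genes was not computed.

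By size, the subset difference passed 1 log2 unit in 3 of the 6 genes in T1DM (27.9% of all genes) and in 4 of 6 in T2DM (29.1%), the additional gene being Fcer1g.

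The signalling genes downstream of the receptors were called in CT at a share near that of all genes. Of 31 genes of activating signalling, 1 was called higher in CT Ly6C-high MCs (3.52% of all genes were called, 2.1% higher), Prkcd, a protein kinase C, at 1.04 (SE 0.04, limma adjusted p = 0.00455), and none lower. Over the 8 libraries, where 12.1% of all genes were called, none of the list was called higher and 1 lower, Pik3r1, a regulatory subunit of phosphoinositide 3-kinase, at -1.06 (SE 0.10, limma adjusted p = 9.37e-05). Without the size limit, 11 were higher and 2 lower over the 8 libraries, where 20.3% of all genes passed. The list median was 0.51 in CT and 0.28 over the 8 libraries, beside -0.09 and -0.08 for all genes. These medians and Prkcd turn negative with the libraries centred on MC genes.

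The 2 lower genes included Syk, the kinase that binds the gamma chain. Its Ly6C-high values were 9.32 and 9.16 for CT, 9.32 for T1DM and 8.96 for T2DM, and its Ly6C-low values 9.64 and 9.67, 9.71 and 9.60. The subsets did not overlap, and the difference was -0.47 over the 8 libraries (SE 0.08, limma adjusted p = 0.00181), while Fcer1g stood at 0.99. The Src-family kinase genes Lyn (0.65, limma adjusted p = 0.000161) and Fgr (0.64, limma adjusted p = 0.000533) stood on the other side of 0, which the centring reverses. B cells also express Syk and Lyn.

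Of 10 genes of inhibitory signalling, none was called by limma in CT or over the 8 libraries, where 3.52% and 12.1% of all genes were. The list medians were 0.06 and 0.03. Inpp5d, which encodes the phosphatase SHIP recruited by Fcgr2b, stood at 0.25 over the 8 libraries (SE 0.13, limma adjusted p = 0.169). Ptpn6, the phosphatase SHP-1, stood at 0.91 in CT (SE 0.05, limma adjusted p = 0.0058), and Cblb, a ubiquitin ligase, at -0.93 (SE 0.15, limma adjusted p = 0.0299). Centring on MC genes turns Ptpn6, Inpp5d and both medians negative and lowers Cblb further. In this list 2 genes were higher and 1 lower over the 8 libraries at an adjusted p under 0.01 of any size, a rule that 20.3% of all genes passed.

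Fcer1g also serves receptors that do not bind IgG, and 8 of 11 listed were measured. Over the 8 libraries 3 rose and 2 fell in Ly6C-high MCs, where 5.37% of all genes were called higher and 6.76% lower. Those that rose were Tarm1 at 3.32, Clec4d at 2.12 and the paired immunoglobulin-like receptor gene Pira2 at 1.93 (SE 0.36, 0.31 and 0.11). Those that fell were Ncr1 at -2.90 and Klrb1c at -2.71, both NK cell receptors that also belong to the NK cell list. In CT alone Pira2 rose and Ncr1 fell. Centring on MC genes brings Clec4d and Pira2 under the size limit. Between T2DM and T1DM, Ncr1 (-2.04, limma adjusted p = 0.00311) and Klrb1c (-2.80, limma adjusted p = 0.00556) fell, as did Ncr1 between T2DM and CT (-1.69, limma adjusted p = 0.0062). Gp6, the collagen receptor of platelets, stood at -2.05 between T2DM and T1DM (SE 0.30, limma adjusted p = 0.0121) and was not called; beside it, 8 platelet markers had a median of -1.23, with 1 called lower.

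Tyrobp, the sister adaptor of Fcer1g, had Ly6C-high values of 9.68 and 9.72 for CT and 9.92 for each diabetic model. Its Ly6C-low values were 8.27 and 8.36 for CT, 8.36 for T1DM and 8.38 for T2DM. It rose by 1.39 in CT (SE 0.05, limma adjusted p = 0.00401) and by 1.47 over the 8 libraries (SE 0.07, limma adjusted p = 2.83e-06). Centring on MC genes brings both differences under the size limit and ends both calls. Cd247, the zeta chain used by T and NK cells, fell over the 8 libraries (-1.36, SE 0.23, limma adjusted p = 0.00204).

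Among 13 other Fc receptors and related genes, 5 fell in CT Ly6C-high MCs and none rose, with a list median of -2.53 (1.43% of all genes were called lower and 2.1% higher). They were Fcrl5 (-4.69), Fcrla (-4.52), the IgM receptor gene Fcmr (-4.32), Fcamr (-3.72) and the low-affinity IgE receptor gene Fcer2a (-2.32), genes known mainly from B cells. Their SEs ran from 0.12 for Fcmr to 0.28 for Fcamr. Over the 8 libraries 7 fell, with Ms4a2 and Fcrl1 added, against 6.76% of all genes. Trim21, the cytosolic antibody receptor, stood at 0.37 (SE 0.18, limma adjusted p = 0.149).

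**Figure D5:**
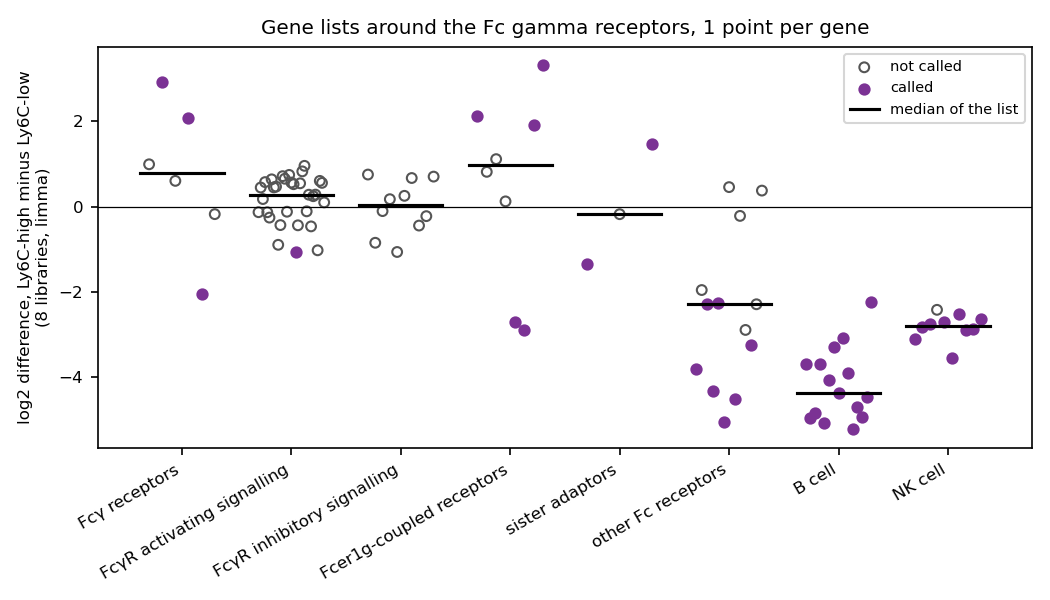
Log2 difference of Ly6C-high minus Ly6C-low MCs over 8 libraries by limma (y axis), 1 point per gene, for the Fc gamma receptor genes and the lists around them (x axis), with called genes filled and a bar at each list's median. The Fc gamma receptor genes spread from -2.06 to 2.93, the medians of the signalling lists are 0.28 and 0.03, and the B cell list has a median of -4.37; centring on MC genes lowers every point by 1.26.

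Across the 8 libraries, which are split by subset, Fcgr3 and Fcer1g had the highest correlation among pairs of members (Pearson r = 0.990, n = 8), and Fcgr4 was negatively correlated with Fcgr1, Fcgr3, Fcgr2b and Fcer1g (r from -0.95 to -0.94). These are descriptions, since all points share the subset split. Restricted to genes averaging a log2 value of at least 5, the patterns most like Fcgr1 were those of Apba1, Samhd1 and Snx20 (r = 0.994 each). For Fcgr3 they were Csnk1e, Plbd1 and Ldlrad3 (r = 0.997 each). Xpo5 (r = 0.996), Nucks1 and Ctso (r = 0.988 each) came first for Fcgr4, Akap13 (r = 0.981), Fbrsl1 and Rassf4 (r = 0.979 each) for Fcgr2b, and Bach1 (r = 0.996), Slc31a2 (r = 0.995) and Dclre1c (r = 0.993) for Fcer1g. Fcgrt had no pattern as close, with Med13l at r = 0.945, Depdc5 at 0.922 and Kpnb1 at 0.914.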

How the data were processed

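Bulk RNA-Seq of sorted mouse MCs was analysed for 8 libraries, grouped by the sample titles. The authors ran kallisto (version 0.45) and tximport (version 1.12.3) in R (version 3.6.1), on mm10 per the submitters' processing notes, and deposited log2 expression values of 16486 genes. How the libraries were scaled or adjusted is not given in the sources used here. The linear values sum to between 838696 and 1090019 per library, and depth is unknown.

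Log2 differences were tested with limma (version 3.58.1, lmFit and eBayes with trend, R 4.3.3), with Benjamini-Hochberg adjustment over 16486 genes. Calls needed an adjusted p under 0.01 and an absolute log2 difference above 1, the study's criteria. Comparisons with 1 library on a side had no test. Tests over both subsets or both diabetic models used those libraries together. The script was tested on simulated data. The members, the gene lists and the tests were chosen with earlier results of these data known. Genes named are the 6 members, genes of the lists, and for each member the 3 genes with the highest Pearson correlation among genes averaging at least 5 on the log2 scale.

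Alternatives were a filter on a mean log2 value of 1 (12527 genes), log2 of the linear value + 1, quantile normalization, no trend, an adjusted p limit of 0.05, a replicate block, leaving out libraries and, added after the data were seen, centring on 6 MC genes. Figures and tables used Python 3.11.15 (numpy 2.4.6, pandas 2.3.3, scipy 1.17.1, matplotlib 3.10.9). Positions and shared words came from GENCODE M21 and upstream sequences from RefSeq (GRCm38.p6), in which all 6 genes were found. The duplicate libraries of the diabetic groups were not analysed here.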

Additional observations from a re-analysis of the deposited data

Results flagged for a closer look

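In 6 instances a pair of diabetic libraries lay outside both CT libraries of their subset, on opposite sides. Fcgr1 is not among them, since its T2DM Ly6C-low value, 0.11 above the CT mean, lay between the CT libraries, while it was -0.93 in T2DM Ly6C-high and -0.34 in T1DM Ly6C-low MCs. Each value rests on 1 library per diabetic group and subset, and none of these differences was tested. The share of all genes with such an instance was not computed. In a given diabetic library, 69.8% to 73.9% of all genes lay outside both CT libraries. The 6 instances are therefore not read as particular to these genes. In Ly6C-high MCs, Fcgr4 was below both CT libraries in T1DM (-0.53) and above both in T2DM (0.094), so the T2DM value exceeded the T1DM value by 0.63. Within T1DM, Fcgr4 was below CT in Ly6C-high and above it in Ly6C-low MCs (0.034), a difference of -0.57. Fcgr2b did the reverse in Ly6C-high MCs, with T1DM above CT (0.37) and T2DM below (-0.23), a difference of -0.60. In Ly6C-low MCs the same gene differed by -0.059, with T1DM at 0.027 and T2DM at -0.032. Fcgrt lay below CT in Ly6C-high and above it in Ly6C-low MCs, in T1DM (-0.13 and 0.16, a difference of -0.30) and in T2DM (-0.34 and 0.45, a difference of -0.79). The CT libraries behind them were close, with gaps of 0.15 and 0.016 for Fcgr4, 0.0045 and 0.049 for Fcgr2b, and 0.13 and 0.00030 for Fcgrt in Ly6C-high and Ly6C-low MCs.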

How the results depend on the processing

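The count of members called between the CT subsets was 3 under the filter on low values, the added 1, quantile normalization, the adjusted p limit of 0.05 and centring, but 0 without the eBayes trend (limma adjusted p 0.0167 to 0.0185), 0 with the replicate block (0.0278 to 0.033) and 0 to 0 when each CT library was left out in turn (0.0633 to 0.0868, the lone library being assumed to vary like the pair). The replicate numbers share only a number, since the CT replicate differences of the subsets had a correlation of 0.0089 over genes. Over the 8 libraries 3 members were called under every setting but 3, under which Fcer1g made it 4, at 1.02, 1.04 and 1.02, without CT Ly6C-high replicate 2, without CT Ly6C-low replicate 2 and without the T1DM libraries. With centring the count of 3 held other members: Fcgr3 was lost (0.80 in CT and 0.81 over the 8 libraries) and Fcgrt gained (-1.21 and -1.44). The replicate block changed no other call. Over all genes, the CT count of 581 was 1089 with the filter on low values, 7966 with centring, and 0 without the trend, with the block or without any 1 CT library, so these settings left no gene of the table called. Quantile normalization moved the median of all genes from -0.087 to 0.020 in CT.

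Centring on MC genes turned the CT differences of Fcgr2b (-0.74), Fcer1g (-0.32) and Fcgrt (-1.21), and over the 8 libraries those of Fcgr2b (-0.66) and Fcer1g (-0.27), because the centring genes themselves differ between the subsets. The other changes of sign were among values near 0 that were not called. Leaving out each CT library in turn, Fcgrt in T1DM minus CT ranged from -0.040 to 0.095, Fcgr1 and Fcgr2b in diabetic minus CT Ly6C-low MCs from -0.33 to 0.11 and from -0.027 to 0.022, and Fcer1g in the interaction from -0.095 to 0.12. For T2DM minus T1DM, Fcer1g was -0.012 with quantile normalization, and -0.023 in the interaction. Without T1DM, Fcgr4 was 0.094 and Fcgr2b -0.23 for diabetic minus CT in Ly6C-high MCs, Fcgr1 was 0.11 in Ly6C-low MCs, and in the interaction Fcgr3 was 0.050 and Fcgr2b -0.20. Without T2DM, Fcgr2b was 0.027 for diabetic minus CT in Ly6C-low MCs and Fcer1g -0.078 in the interaction. Their cause was not tested.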
